A study of Homo sapiens with 3 samples.

Results

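GTSF1, PRAME and 8 further cancer-testis genes, namely MAGEA1, MAGEA3, MAGEA4, MAGEA6, MAGEA12, CTAG1B, SSX1 and PAGE5, were read in 3 mRNA libraries of a human hepatocellular carcinoma (HCC) line and its subclones. The genes were found by their symbols, and 7 of the 10 were listed in at least 1 library, out of 16149 genes listed in all. GTSF1 and PRAME were chosen by their measured ratios over the parent, which stood among the highest of all genes, so these ratios are given as a description with no test. The other 8 were added as known antigens of the same class, with their values already seen. A gene is called listed here where its RPKM was above 0, and a gene that a library did not list was set to 0.

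The study asked which genes go with the organs to which HCC cells spread. Its 3 libraries came from cultured cells of the HCCLM3 line, with 1 library for each line. The parent was labelled as poorly metastatic, although the study's methods describe HCCLM3-R, the parental line that carries a red fluorescent protein, as highly metastatic. Subclone 1 was labelled as having a higher ability to metastasise, with the lung as its target. Subclone 2 was labelled as spreading to the lung and also to the celiac lymph node. All 3 were grown in DMEM, and the RNA was taken with Trizol and made into Illumina TruSeq libraries. By the study's methods, its monoclones were grown from single cells by limiting dilution of cells from lung or lymph node metastases in nude mice. If the sequenced subclones were among these monoclones, each stands for 1 clone, but the labels do not give the name of the clone that was sequenced.

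Cancer-testis antigens are proteins that healthy adults make mainly in the germ cells of the testis, and that many tumours make again. Their promoters are usually methylated at CG sites and silent in other tissues, and many of the genes lie on the X chromosome in families of near-identical copies. Because the testis shows few antigens to the immune system, several of these proteins have been used as targets of tumour vaccines and T cells. GTSF1 is a small zinc finger protein that helps PIWI proteins silence transposons in germ cells. PRAME is a leucine-rich repeat protein that serves as a substrate receptor of a CUL2 ubiquitin ligase and was described as a repressor of retinoic acid receptors.

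The depth was read from steps in the RPKM, the reads of a gene divided by its length and by the total of its library. The libraries held from 4488825 to 4725150 reads, and 1 read of a gene of the length of PRAME was worth less than 0.1 RPKM. With 1 library per line there is no spread between replicates, no test was possible, and all intervals are exact 95% intervals that cover counting error only. In RNA from whole cultures, fewer cells with a gene and less RNA per cell cannot be told apart. Of the hepatocyte markers, HNF4A, a transcription factor gene of the liver, was at 11.7, 11.9 and 16.0 RPKM in the parent, subclone 1 and subclone 2. KRT8, a keratin gene of simple epithelia, was at 1614, 1641 and 1742 RPKM, whereas ALB, the albumin gene, was at 2.46, 49.5 and 68.8 RPKM. Of the 11 hepatocyte markers, 7 reached 1 RPKM in a library. TTR (0, 0 and 2 reads), APOA1 (1, 3 and 2) and SERPINA1 (1, 4 and 1) were nearly unread. Of 10 germ cell markers (DDX4, DAZL, SYCP1, SYCP3, TNP1, PRM1, PRM2, ACRV1, TEX101 and STRA8), 7 were at 0 in every library. The other 3 held at most 7 reads in a library, and the summed level of the 10 was 0.195, 0.737 and 0.514 RPKM in the 3 lines.

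GTSF1 (Entrez 121355) lies on the minus strand at chr12:54455950-54473602 of GRCh38, in 9 exons by the GENCODE annotation. PRAME (Entrez 23532) lies on the minus strand at chr22:22547701-22559361 in 6 exons. Their promoters are shown because these genes were listed in both subclones and not in the parent, and those of SSX1 and MAGEA3 because these genes were level in the same libraries. Each sequence is the 250 bases before a RefSeq start site in GRCh38.p14, from 5′ to 3′ on the strand of the gene, with CG sites, the bases at which such promoters are methylated, in capitals. They were taken at chr12:54473603-54473852 (minus strand) for GTSF1, chr22:22559266-22559515 (minus) for PRAME, chrX:48255142-48255391 (plus) for SSX1 and chrX:152698544-152698793 (plus) for MAGEA3.
GTSF1: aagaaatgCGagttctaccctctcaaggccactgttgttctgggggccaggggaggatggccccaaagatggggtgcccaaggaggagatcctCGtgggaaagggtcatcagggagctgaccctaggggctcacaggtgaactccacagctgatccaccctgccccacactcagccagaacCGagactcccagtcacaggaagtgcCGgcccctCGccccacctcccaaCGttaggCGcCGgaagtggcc
PRAME: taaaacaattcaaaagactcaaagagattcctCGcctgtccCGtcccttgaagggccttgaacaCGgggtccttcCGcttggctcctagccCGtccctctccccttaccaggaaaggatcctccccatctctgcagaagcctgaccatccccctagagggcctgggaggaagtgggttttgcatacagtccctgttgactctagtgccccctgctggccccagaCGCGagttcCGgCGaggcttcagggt
SSX1: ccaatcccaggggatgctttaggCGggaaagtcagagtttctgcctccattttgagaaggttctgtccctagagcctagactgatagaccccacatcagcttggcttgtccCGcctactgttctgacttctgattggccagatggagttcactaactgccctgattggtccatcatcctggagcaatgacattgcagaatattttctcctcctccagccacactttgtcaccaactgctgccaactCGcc
MAGEA3: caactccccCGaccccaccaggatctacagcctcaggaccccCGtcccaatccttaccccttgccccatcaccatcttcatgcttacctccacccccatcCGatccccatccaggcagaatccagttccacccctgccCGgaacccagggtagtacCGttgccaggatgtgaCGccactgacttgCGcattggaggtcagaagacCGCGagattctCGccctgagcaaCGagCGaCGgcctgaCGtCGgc

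These 250 bases held 8 CG sites in GTSF1, 9 in PRAME, 3 in SSX1 and 15 in MAGEA3. With the 50 bases after the start site added, as in the 35116 RefSeq windows of 300 bases over all genes, the counts were 10, 13, 5 and 19, against a median of 14 over all windows. Fewer CG sites than in GTSF1 were found in 43.6% of all windows, and the same share was 48.3% for PRAME, 29.6% for SSX1 and 57.1% for MAGEA3. The gene at the highest level of the 4, SSX1, thus had the fewest CG sites, and MAGEA3 the most. The window of MAGEA6 had the same 300 bases as that of MAGEA3. Windows were found for 8 of the 10 genes, 15 in all with 4 to 19 CG sites, and MAGEA1 and CTAG1B were not matched. PRAME had further start sites whose windows held 12 and 4 CG sites. The motifs of 3 factor families were searched on both strands. The letters CCGGAAG or CTTCCGG, the core bound by ETS factors, stood once in the GTSF1 window, from 12 bases before the start site, and in 10.3% of all windows. The E-box CACGTG, found in 7.26% of all windows, stood only in the window of PAGE5 among these genes, and the E2F letters TTCCCGC or GCGGGAA, found in 6.55%, only in that of SSX1. No methylation was measured.

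GTSF1 was at 0 RPKM in the parent, 36.9 RPKM in subclone 1 (95% interval 31.1 to 43.6, from 140 reads) and 19.3 RPKM in subclone 2 (15.2 to 24.2, from 75 reads). It was thus read only in the 2 subclones, and in subclone 1 its level stood above 86.1% of the listed genes. For the 0 reads of the parent, the limit used was 3 reads, or 0.813 RPKM. It is 2.20% of the level in subclone 1 and 4.21% of that in subclone 2. The exact 95% interval of the parent ended higher, at 0.9997 RPKM. GTSF1 was 45.4-fold above the limit of 3 reads in subclone 1 and 23.7-fold above it in subclone 2. These 2 values leave out the counting error of the subclones. The exact 95% intervals of the fold over the parent began lower, at 36.5 in subclone 1 and 18.8 in subclone 2. On the scale of log2 of (RPKM + 0.1), where the size against a 0 depends on the 0.1 added, the differences were 8.53 and 7.60, the highest of all genes in both comparisons. Between the subclones, the level in subclone 2 was 0.523 times that in subclone 1 (interval 0.389 to 0.697), or -0.93 on the log2 scale. The values of both subclones had also entered the choice of the gene. As a description only, the interval left out 1. The value itself stayed short of the 2-fold bound, although the interval also covered a 2-fold difference.

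PRAME was at 0 RPKM in the parent, 6.49 RPKM in subclone 1 (5.17 to 8.04, from 83 reads) and 2.82 RPKM in subclone 2 (1.99 to 3.89, from 37 reads). The order of the 3 lines was that of GTSF1. The limit of the parent was 0.241 RPKM, or 3.71% and 8.53% of the levels in subclones 1 and 2. PRAME was 26.9-fold above this limit in subclone 1 and 11.7-fold above it in subclone 2, leaving out the counting error of the subclones. The exact intervals of the fold over the parent began lower, at 21.4 in subclone 1 and 9.06 in subclone 2. The log2 differences of PRAME, 6.04 and 4.87, were the 4th and the 12th highest of all genes. In subclone 2 PRAME was at 0.435 times its level in subclone 1 (0.287 to 0.648), a log2 difference of -1.17. The level of PRAME was moderate, above 50.2% of the listed genes in subclone 1 and 35.1% in subclone 2. GTSF1 was 5.70 times as high as PRAME in subclone 1 and 6.85 times in subclone 2 on the RPKM scale, which is per length.

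Genes that no read showed in the parent were common, and most were low. There were 1446 genes listed in a subclone and not in the parent, 481 of them in both subclones, and 23 of these had at least 1 RPKM in both. Besides GTSF1 and PRAME, the 23 included the acute-phase genes SAA1 and ORM2, the glycolate oxidase gene HAO1, the galectin gene LGALS2, and small RNA genes such as SNORD10 and MIR614. None of the other 8 cancer-testis genes was among them.

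SSX1 codes for a nuclear repressor known for its fusion with SS18 in synovial sarcoma. It was at 173.7 RPKM in the parent (163 to 185, from 991 reads), 162 RPKM in subclone 1 (152 to 173) and 158.7 RPKM in subclone 2 (149 to 169). It was by far the highest of the 10 genes in each library, above 97.8% of the listed genes in the parent. Its fold over the parent was 0.933 in subclone 1 (0.852 to 1.02) and 0.914 in subclone 2 (0.835 to 0.9995), and 0.980 between the subclones (0.895 to 1.07). The intervals of the levels overlap between the 3 lines, and of the folds only that of subclone 2 over the parent ended just short of 1. SSX1 was 4.38 times as high as GTSF1 in subclone 1 and 8.22 times in subclone 2.

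MAGEA3 belongs to the MAGE-A family, whose proteins bind RING ubiquitin ligases such as TRIM28. It was at 14.5 RPKM in the parent (12 to 17.4, from 114 reads), 13.5 RPKM in subclone 1 (11.1 to 16.3, from 109) and 13.5 RPKM in subclone 2 (11.1 to 16.3, from 112). The lines did not differ beyond counting error. The fold over the parent was 0.931 in subclone 1 (0.709 to 1.22) and 0.933 in subclone 2 (0.713 to 1.22). SSX1 and MAGEA3 kept nearly the same ratio, at 12, 12 and 11.7 in the parent, subclone 1 and subclone 2.

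**Figure D1:**
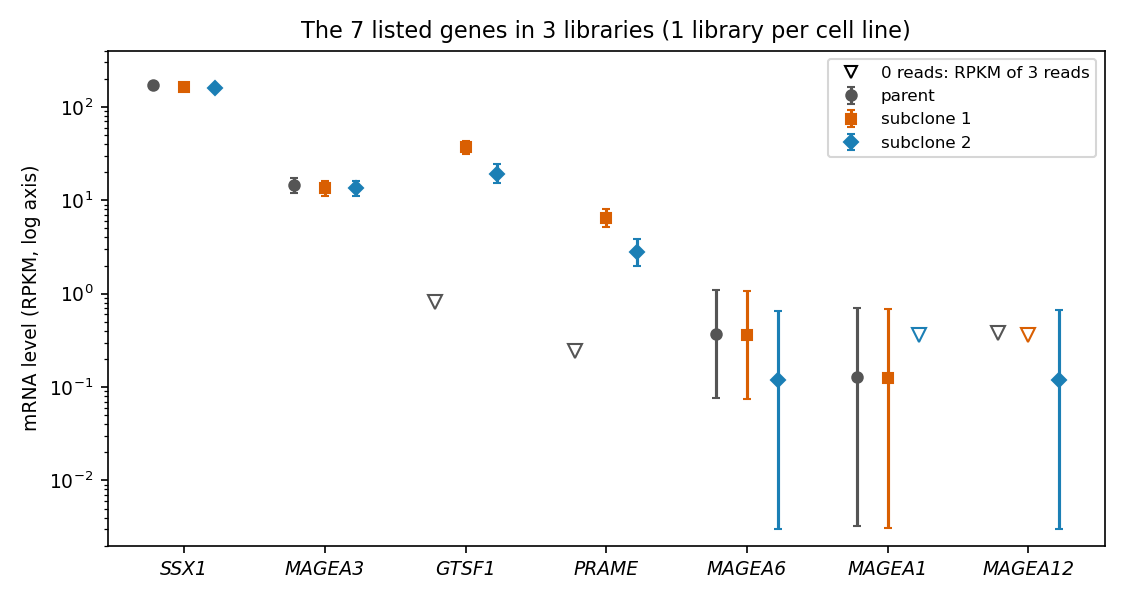
mRNA level in RPKM on a log axis of the 7 listed genes in the parent, subclone 1 and subclone 2, with 1 library per line. Points are the deposited values, bars are exact 95% counting intervals, and open triangles mark a library with 0 reads at the RPKM that 3 reads would give. SSX1 and MAGEA3 are level across the lines, and GTSF1 and PRAME lie above the triangle of the parent in both subclones.

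The other MAGE-A genes of the 10 were at the edge of detection. MAGEA6 was at 0.374, 0.364 and 0.118 RPKM from 3, 3 and 1 reads in the parent, subclone 1 and subclone 2. MAGEA1 was at 0.127 and 0.124 RPKM from 1 read each in the parent and subclone 1 and at 0 in subclone 2, where 3 reads would give 0.362 RPKM. MAGEA12 had a single read, in subclone 2, at 0.119 RPKM. These reads cannot show a difference between lines, as the interval of the fold of MAGEA6 in subclone 2 over the parent ran from 0.00603 to 3.94. MAGEA4, CTAG1B (which codes for NY-ESO-1) and PAGE5 were listed in no library. On the length of their main GENCODE transcript, 3 reads in the parent would be 0.388 RPKM for MAGEA4, 0.893 RPKM for CTAG1B and 0.902 RPKM for PAGE5, so lower levels were not detectable at this depth.

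Reads of near-identical copies limit these values, since how the authors treated reads that fit several genes is not given in the sources used here. Of the stretches of 50 bases in the GENCODE transcripts of MAGEA3, 54.9% also stood in those of MAGEA6, whereas none of those of GTSF1 and PRAME stood in another gene. The share with any other gene was 53.9% for MAGEA6, 13.8% for MAGEA12, 8.81% for SSX1 and 89.9% for CTAG1B, whose copy is CTAG1A. MAGEA3 and MAGEA6 lie 63.8 kb apart on the X chromosome, at chrX:152698752-152702347 and chrX:152766136-152769747. Summed over the 6 listed MAGE-A genes (MAGEA1, MAGEA2, MAGEA3, MAGEA6, MAGEA11 and MAGEA12), which depends little on how reads were split among genes of like length but would lack any shared reads that were discarded, the level was 15.5, 15.2 and 15.3 RPKM. MAGEA3 made up 93.7%, 88.5% and 88.3% of that sum.

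On the log2 (RPKM + 0.1) scale, 2 of the 7 listed genes passed 2-fold upward in subclone 1 over the parent, beside 9.43% of all 16149 listed genes. None passed it downward, beside 5.47%. In subclone 2 over the parent, 3 were higher, beside 9.62%, and 2 were lower, beside 5.83%. GTSF1 and PRAME, chosen by these comparisons, were the 2 in subclone 1 and 2 of the 3 in subclone 2, so nothing is read from these counts. MAGEA12, MAGEA1 and MAGEA6 gave the rest, on 1 to 3 reads. In subclone 2 over subclone 1, MAGEA12 was higher, beside 5.21% of all genes, and PRAME, MAGEA1 and MAGEA6 were lower, beside 5.59%. Apart from PRAME these again rested on 1 to 3 reads. The median log2 difference of the 10 genes was 0.00, 0.00 and -0.01 in the 3 comparisons, beside 0.00, 0.02 and 0.01 over all genes, with the 3 genes listed in no library entered as 0. Over the 7 listed genes it was -0.02, -0.10 and -0.93. The -0.93 is the value of GTSF1, with PRAME, MAGEA1 and MAGEA6 below it, and MAGEA1 and MAGEA6 rested on 0 to 3 reads. SSX1 at -0.03 and MAGEA3 at 0.003 were level in that comparison, so it does not describe the genes as a group.

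**Figure D2:**
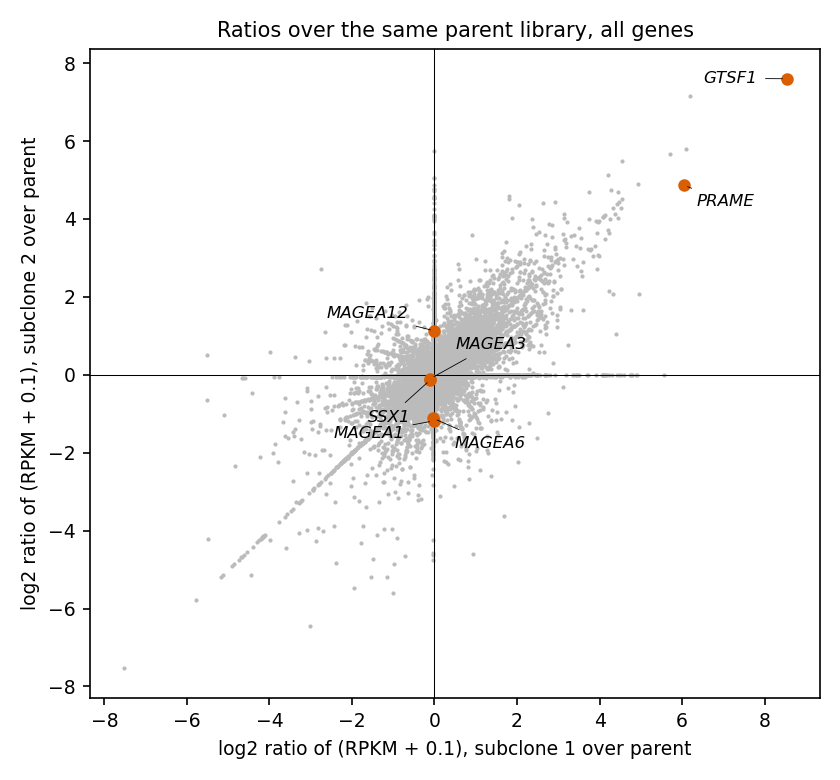
Difference of log2 (RPKM + 0.1) between each subclone and the parent for all 16149 genes in grey and the 7 listed cancer-testis genes in orange, with subclone 1 on the horizontal and subclone 2 on the vertical axis. Both axes use the same parent library, so points near the diagonal can share its counting error. GTSF1 lies at 8.53 and 7.60, PRAME at 6.04 and 4.87, and SSX1 and MAGEA3 near 0 on both axes.

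The genes whose pattern over the 3 libraries was most like that of GTSF1, by the distance between centred log2 (RPKM + 0.1) values, were MIR614 (distance 1.75), LGALS2 (1.78), SAA1 (2.04), PRAME (2.14) and SNORD10 (2.66). All 5 were at 0 in the parent. For PRAME they were LGALS2 (0.732), SAA1 (0.827), SNORD10 (0.922), TM4SF4 (1.09) and SNORD88B (1.10). TM4SF4, which codes for a tetraspan membrane protein, differed from the others in being listed in the parent, at 1.92, 46.1 and 39.5 RPKM in the 3 lines. The distances of GTSF1 were the larger. MIR614, SNORD10 and SNORD88B are small RNA genes. As RPKM divides by length, very few reads give such a gene more than 1 RPKM, so their likeness is weakly grounded. For SSX1, whose level was flat, 1263 genes lay within a distance of 0.1, so its nearest genes, led by SSR3 (0.0048), mark no particular pattern.

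The nearest protein-coding genes on the chromosome were read to see which of these levels were shared with their surroundings. ITGA5, the integrin alpha 5 gene next to GTSF1, was at 40.0, 80.9 and 57.2 RPKM in the parent, subclone 1 and subclone 2, a log2 difference over the parent of 1.01 and 0.52. It had the same order of lines as GTSF1, but was well read in the parent, with 766 reads. ZNF385A, beyond it, was at 2.58, 3.58 and 3.32 RPKM. On the other side NCKAP1L had 1 read, in subclone 2, and PDE1B and PPP1R1A were not listed. Further out, over 5 genes on each side (a span chosen after values were seen), COPZ1 was at 152, 150 and 151 RPKM. The side of ITGA5 thus held 3 genes read in all lines and the other side none, with 4 of the 10 neighbours listed and 3 of them in the parent.

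Around PRAME, the nearest genes were themselves at 0 in the parent. ZNF280A had 0, 5 and 2 reads in the parent, subclone 1 and subclone 2, or 0, 0.498 and 0.194 RPKM. GGTLC2 and RSPH14 each had 0, 1 and 1 reads, and ZNF280B 0, 0 and 1. VPREB1 and IGLL5 were not listed. Few reads lie behind each of these, and the intervals of ZNF280A and the others do not separate the lines by themselves. Over 5 genes on each side, 8 of 10 were listed, 4 of them in the parent, and the 4 listed that were not in the parent all lay within 3 places of PRAME. The genes further out were close to level, such as TOP3B at 3.92, 3.47 and 3.12 RPKM and PPM1F at 7.84, 7.14 and 6.96 RPKM. GNAZ was an exception at 0.484, 0.942 and 1.31 RPKM, from 7, 14 and 20 reads.

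**Figure D3:**
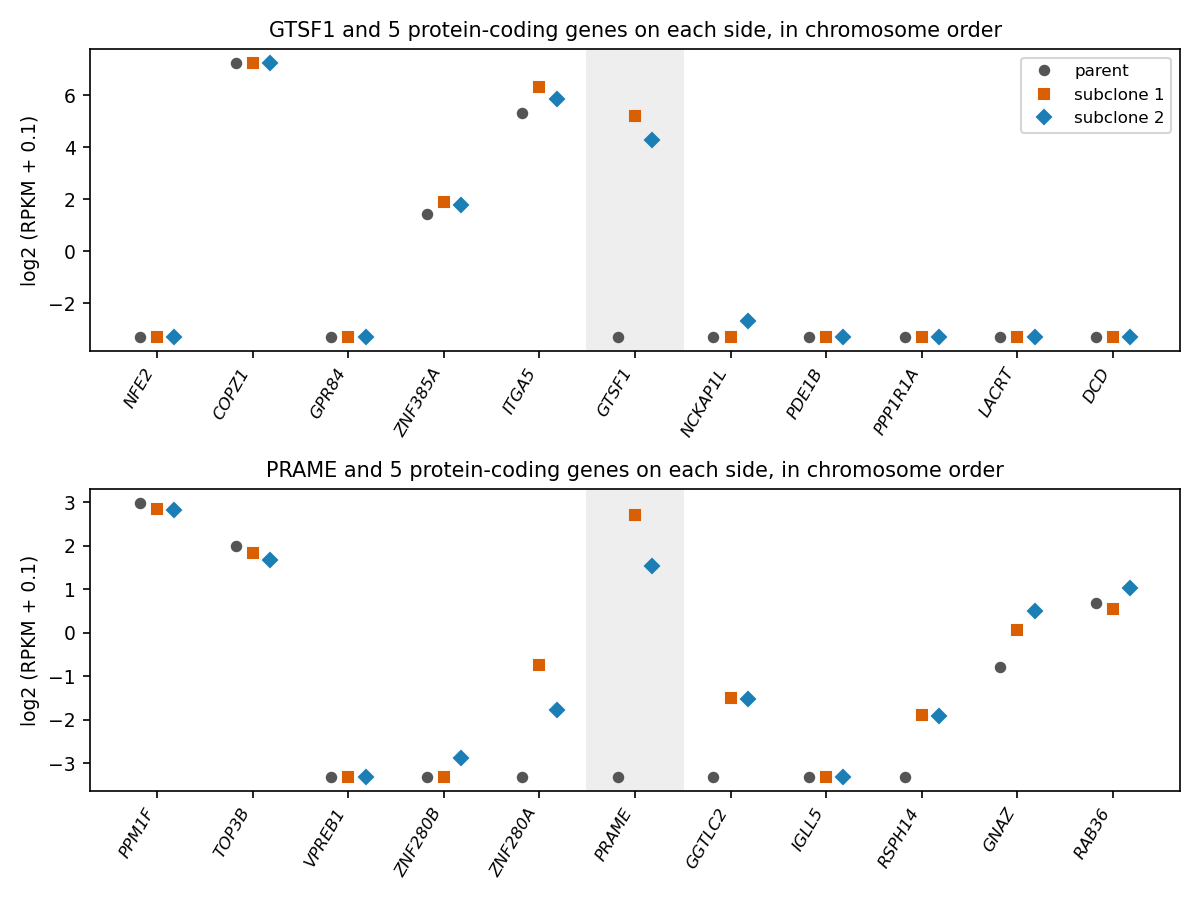
log2 (RPKM + 0.1) of GTSF1 (top) and PRAME (bottom), shaded, and of 5 protein-coding genes on each side in chromosome order, in the parent, subclone 1 and subclone 2. The lowest level on each axis is 0 RPKM. GTSF1 stands beside ITGA5, which is read in all 3 lines, and the 4 genes read in a subclone but not in the parent around PRAME lie within 3 places of it.

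On the X chromosome, SSX1 stood alone among its neighbours. SSX5, SSX4, SSX4B and SPACA5B were not listed, ZNF630 had 1 read in the parent, and SSX3 had 1 read in subclone 1. Next to MAGEA6, CETN2 was at 111, 122 and 117 RPKM and NSDHL at 41.2, 32.6 and 28.4 RPKM. CSAG2, MAGEA2B and CSAG1, which follow MAGEA3, were not listed, nor were MAGEA10 and GABRQ, which precede it. GABRA3, which lies between MAGEA10 and GABRQ, had 1, 4 and 2 reads in the parent, subclone 1 and subclone 2. MAGEA3 was thus the one gene of its stretch of MAGE-A and CSAG copies read above 1 RPKM.

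Among 21 other cancer-testis genes of the MAGE-A, B and C families, 6 were listed and 3 reached 1 RPKM. MAGEC1 was at 2.21, 16.2 and 17.7 RPKM in the parent, subclone 1 and subclone 2, a fold over the parent of 7.31 (5.31 to 10.3) and 8.0 (5.82 to 11.2). MAGEC2, whose protein binds TRIM28, was at 3.77, 18.0 and 7.90 RPKM, a fold of 4.78 (3.29 to 7.14) and 2.10 (1.38 to 3.24). Both MAGE-C genes were thus higher in the subclones beyond counting error, and unlike GTSF1 and PRAME they were read in the parent. MAGEC2 was lower in subclone 2 than in subclone 1, at 0.438 times (0.329 to 0.579), and MAGEC1 was not, at 1.09 times (0.938 to 1.27). MAGEA11 was at 0.471, 1.26 and 1.45 RPKM from 4, 11 and 13 reads. Against the parent, 4 of the 6 listed genes passed 2-fold upward and 1 downward in subclone 1, beside 9.43% and 5.47% of all listed genes. In subclone 2, 5 passed it upward and 1 downward, beside 9.62% and 5.83%. Only the calls of MAGEC1 and MAGEC2 were shown to be beyond counting error. The fold interval of MAGEA11 over the parent included 1, at 0.794 to 11.5 in subclone 1 and 0.954 to 13.0 in subclone 2. MAGEB10, the lower gene, had 3, 0 and 1 reads, and MAGEA2 had 1 read, in subclone 2. MAGEC3 was at 0, 0.127 and 0.110 RPKM, and its reads were not recovered. The counts are thus no result about these families. Of the 6 listed genes, those other than MAGEC1, MAGEC2 and MAGEA11 stayed below 1 RPKM in each library.

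Of 96 genes of other cancer-testis families, most of them X-linked, 79 had an identifier, 13 were listed and 6 reached 1 RPKM. SPANXA2, of a family of sperm nuclear proteins with near-identical copies, was at 49.3, 47.5 and 19.1 RPKM, so that it was level in the parent and subclone 1 and at 0.388 times the parent in subclone 2 (0.259 to 0.572). SPANXD, at 3.48, 8.47 and 3.31 RPKM, was highest in subclone 1, and SPANXE, at 4.28, 8.79 and 3.16 RPKM, had the same order with a fold interval over the parent that included 1. ACTL8, an actin-like gene on chromosome 1, was at 2.60, 0.230 and 0.560 RPKM, lower in both subclones at 0.0885 times (0.0101 to 0.360) and 0.216 times (0.0639 to 0.584). SPANXC at 1.05, 1.53 and 0.996 RPKM and SSX6 at 0.866, 1.52 and 1.15 RPKM had too few reads to separate the lines. Against the parent, 7 of the 13 listed genes passed 2-fold upward and 3 downward in subclone 1, beside 9.43% and 5.47% of all listed genes. In subclone 2, 1 passed it upward and 4 downward, beside 9.62% and 5.83%. Many of these genes had a single read. The families thus did not move in 1 direction, with MAGEC1 higher in both subclones, SPANXA2 lower in 1 and ACTL8 lower in both.

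**Figure D4:**
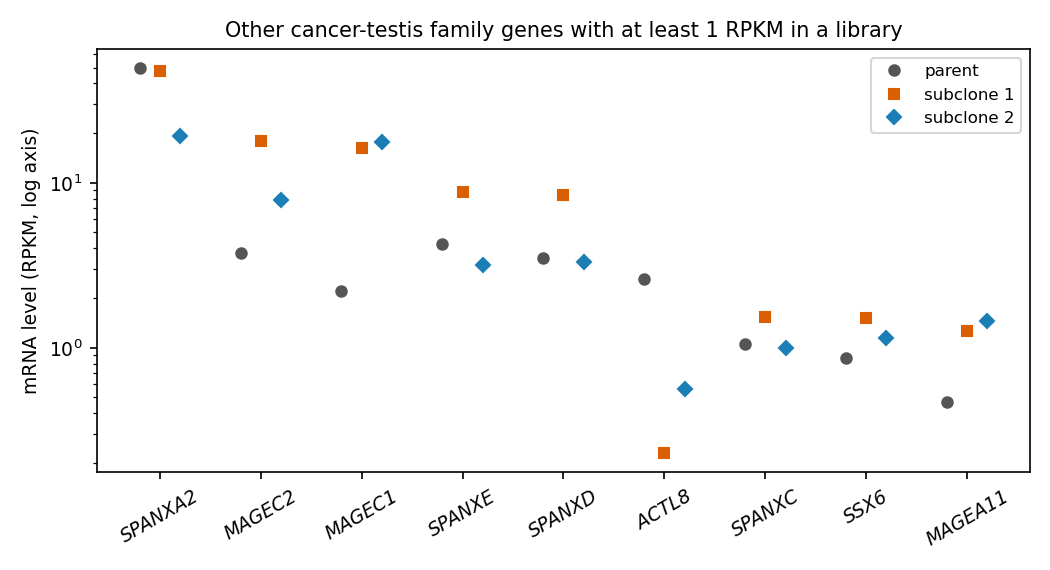
mRNA level in RPKM on a log axis of 9 other cancer-testis genes with at least 1 RPKM in a library, in the parent, subclone 1 and subclone 2, 1 library each. MAGEC1 and MAGEC2 are lowest in the parent, SPANXA2 is lowest in subclone 2 and ACTL8 is highest in the parent.

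A further 62 genes known from testis or germ line gave 31 listed genes, of which 13 reached 1 RPKM, while 3 passed 2-fold upward and 4 downward in subclone 1 and 4 each way in subclone 2, both against the parent. Set beside 9.43% and 5.47% of all genes in subclone 1 and 9.62% and 5.83% in subclone 2, these counts are no result about the list. Several of the 31 also act in any dividing cell, such as the mitotic kinase gene TTK at 26.4, 24.0 and 24.0 RPKM. IL13RA2, an X-linked gene for a decoy receptor of interleukin 13, was the highest of them in the parent, at 102.8, 47.1 and 39.1 RPKM, a fold over the parent of 0.459 (0.398 to 0.527) and 0.380 (0.327 to 0.440). Its direction was opposite to that of GTSF1 and PRAME. STK31 was at 0.505, 1.41 and 0.600 RPKM. Of the PRAME family on chromosome 1 (PRAMEF genes), 21 were sought, 19 had an identifier, and none was listed in any library.

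The partners of GTSF1 in the piRNA pathway were mostly absent or low. Of 23 genes, the paralog GTSF1L included, 15 were listed and 3 reached 1 RPKM, namely the tudor domain genes TDRD7 at 10.8, 17.3 and 19.9 RPKM and TDRKH at 11.4, 11.6 and 16.2 RPKM, and the mitochondrial nuclease gene PLD6 at 2.41, 2.26 and 1.55 RPKM. PIWIL1 was not listed, and the other PIWI genes held few reads, with 4, 7 and 5 for PIWIL2 and 2, 4 and 5 for PIWIL4. The germ cell helicase gene DDX4 had 7 reads, all in subclone 2. GTSF1 was thus higher than any of these PIWI genes in both subclones by RPKM. Against the parent, 1 of the 15 listed genes passed 2-fold upward and 3 downward in subclone 1 (beside 9.43% and 5.47% of all listed genes). In subclone 2, 2 passed it upward and 1 downward (beside 9.62% and 5.83%), on few reads each.

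The protein partners of PRAME and the MAGE proteins were read in all 3 lines. All 10 (CUL2, TCEB1, TCEB2, RBX1, RARA, RARB, RARG, EZH2, TRIM28 and TRIM27) reached 1 RPKM and none was 2-fold different in any comparison. CUL2 was at 14.5, 14.3 and 14.5 RPKM and EZH2 at 21.2, 22.1 and 21.4 RPKM. RARA, which codes for a retinoic acid receptor, was at 11, 15.5 and 15.3 RPKM, 1.42 times the parent in subclone 1 (1.16 to 1.73). TRIM28 was at 147, 116 and 115 RPKM, or 0.787 times the parent in subclone 1 (0.736 to 0.841). The broadly expressed MAGE genes were also read throughout, 6 of 11, with none 2-fold different, led by MAGED1 at 142, 183 and 148 RPKM.

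Genes of DNA methylation and of germ-line gene silencing were nearly all listed, 14 of 15. DNMT1, the maintenance methyltransferase gene, was at 35.2, 29.4 and 29.6 RPKM, 0.837 times the parent in subclone 1 (0.758 to 0.925) and 0.841 times in subclone 2 (0.762 to 0.929). Its cofactor gene UHRF1 was at 27.9, 21.7 and 23.0 RPKM. Among the genes of the methyltransferases that set new marks, DNMT3B was at 2.25, 3.89 and 3.26 RPKM and DNMT3A at 0.406, 1.04 and 0.674 RPKM. DNMT3A, from 8, 21 and 14 reads, was the 1 gene of the list past 2-fold, upward in subclone 1 over the parent, beside 9.43% of all genes. E2F6, which codes for a repressor of germ-line genes, was at 4.01, 3.34 and 3.07 RPKM, and CTCFL, itself a testis gene, was not listed.

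Markers of other cells were read beside these results. The 6 fibroblast markers summed to 15.7, 31.1 and 24.3 RPKM in the parent, subclone 1 and subclone 2, the order of GTSF1 and PRAME, led by LUM at 10.1, 24.0 and 21.0 RPKM. The 6 did not move together, as DCN was at 0.773, 4.42 and 2.75 RPKM and COL3A1 at 4.42, 2.21 and 0.463 RPKM. Of the 5 listed, 2 passed 2-fold upward and 2 downward in subclone 2 over the parent, beside 9.62% and 5.83% of all genes. Of the lower 2, COL1A1 had 9 reads in the parent and 1 in subclone 2. The 6 leukocyte markers summed to 75.7, 113 and 99.8 RPKM, nearly all of it CD68, and PTPRC had 2 reads, in the parent. The 4 endothelial markers summed to 4.74, 11.8 and 7.56 RPKM, nearly all of it from PECAM1 at 3.33, 9.81 and 4.46 RPKM and KDR at 1.36, 1.93 and 3.08 RPKM. CDH5 was at 0 in the parent and subclone 2 and had 1 read in subclone 1, and VWF had 2, 1 and 1 reads. Of the 11 hepatocyte markers 10 were listed, and 5 passed 2-fold upward in subclone 1 over the parent, beside 9.43% of all genes, ALB with the largest difference. The part of these markers in the levels of GTSF1 and PRAME was not tested.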

How the data were processed

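The authors deposited RPKM values by Entrez number and symbol, and listed only genes above 0. The submitters' processing notes name hg19, and the aligner, the counter, the annotation and the handling of shared reads are not given in the sources used here. The 10 genes and all lists were chosen with earlier results of these data known. From the list of each gene group, genes with at least 1 RPKM in a library were named, up to 10 by level, and some genes outside this rule were named after values were seen. The motifs and the span of 5 neighbours were also chosen after values were seen. Reads were recovered from the RPKM as whole multiples of the worth of 1 read, which 91.6% to 92.0% of the 500 lowest genes met, and served for exact Poisson and Clopper-Pearson 95% intervals and for the limit of 3 reads at 0. Ratios were log2 of (RPKM + 0.1), and 2-fold was the bound for counts. The steps were tested on simulated data. Gene places, transcript lengths and shared stretches came from GENCODE 29 (GRCh38), the order of genes and the promoters from RefSeq (GRCh38.p14), which held 99.4% of the 16149 Entrez numbers. Python 3.11.15, numpy 2.4.6, pandas 2.3.3, scipy 1.17.1 and matplotlib 3.10.9 were used.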

Additional observations from a re-analysis of the deposited data

How the results depend on the processing

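With 1 library per line, counting error is the only error given, and genes under about 3 reads cannot be compared. Of 120 recomputed log2 differences of the listed genes, over pseudocounts of 0.01 and 1 and other scalings of the libraries, 117 moved by less than counting error and 0 changed direction beyond it. This says little for genes at 0 in a library, whose interval is open on 1 side. MAGEA1 in subclone 2 over the parent, for example, went from -1.18 to -3.78 and still counted as within it. Those of GTSF1 ran from 5.25 to 11.9 in subclone 1 over the parent and from 4.34 to 10.9 in subclone 2 over the parent, depending on the pseudocount. PRAME with a pseudocount of 1 was at 2.90 and 1.93, and SSX1 in subclone 1 over the parent was at -0.23 when divided by ACTB. PRAME in subclone 2 over subclone 1 ran from -1.22 to -0.97, so that its 2-fold call there was lost with a pseudocount of 1. In subclone 2 over the parent, 0 genes were at least 2-fold lower with a pseudocount of 1, with a mean RPKM of at least 1 required, or with the MAGE-A genes summed. In subclone 2 over subclone 1, 0 were at least 2-fold higher under each of these, and lower were 0 with a pseudocount of 1 and 1 under each of the other 2. No paired analysis was possible because each line has 1 library.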
